A study of Mus musculus with 6 samples.

Results

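The MS4A (membrane-spanning 4-domains, subfamily A) genes measured here were Ms4a4a, Ms4a4b, Ms4a4c, Ms4a6b, Ms4a6c, Ms4a6d and Ms4a7, chosen by name as the family members expressed in T cells, monocytes and macrophages. The choice was made with earlier results of these data known. All 7 were among the 23122 genes of the count table, and all 7 passed the filter on low counts. They were read in 6 bulk RNA libraries of CT26 tumors, a mouse colorectal carcinoma line implanted under the skin of female BALB/c mice of 6 to 8 weeks, with 500000 cells per injection. The 3 TP-18 tumors came from mice given TP-18 orally at 50 mg/kg once a day for 3 weeks, and the 3 vehicle tumors from mice given vehicle over the same time. The series title names TP-18 as a dual antagonist of EP2 and EP4, receptors of prostaglandin E2. Both groups share the host strain, the graft and the start of dosing at tumor volumes between 100 and 200 mm3. Nothing in the labels says that each library is a separate animal, so p-values measure only the spread between these samples.

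MS4A proteins cross the membrane several times and sit in the plasma membrane and in intracellular vesicles. Each white blood cell type carries its own set, and family members bind other receptors at the cell surface and change how strongly those receptors signal or are taken up. The family's founding members are the B cell antigen CD20, encoded by Ms4a1, and the beta chain of the high-affinity IgE receptor of mast cells and basophils, encoded by Ms4a2. In mice, Ms4a4b is a T cell and NK cell gene whose protein associates with the costimulator GITR and restrains proliferation, Ms4a4a and Ms4a7 are macrophage genes, and the Ms4a6 genes are expressed in monocytes and macrophages, Ms4a6b also in T cells. In bulk tumor RNA, more cells of a type and more RNA per cell cannot be told apart.

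The members lie side by side on chromosome 19, between 11321039 and 11604804 in RefSeq's GRCm38.p6 annotation, from which all gene positions here are taken (284 kb), and are related in sequence, so the bases that separate their reads bear on every value below. Coding sequences of the longest GENCODE M21 transcripts were aligned over their full length. Ms4a4b and Ms4a4c were the most alike members, identical at 622 of 678 bases (91.7%), with a longest identical run of 127 bases. Ms4a6b and Ms4a6c matched at 85.4% of aligned bases, Ms4a6b and Ms4a6d at 81.2%, and Ms4a6c and Ms4a6d at 79.0%, with longest identical runs of 55, 81 and 44 bases. Ms4a4a matched Ms4a4b and Ms4a4c at only 67.1% and 68.3%, and Ms4a7 matched no other member at more than 65.9%. The stretches that follow hold the longest shared runs of the pairs Ms4a4b with Ms4a4c and Ms4a6b with Ms4a6d. They are coding bases 301 to 450 of Ms4a4b and Ms4a4c and 91 to 240 of the Ms4a6 genes, written 5′ to 3′ in the sense of the gene, with bases that differ from Ms4a4b or Ms4a6b at the same position in capitals.
Ms4a4b: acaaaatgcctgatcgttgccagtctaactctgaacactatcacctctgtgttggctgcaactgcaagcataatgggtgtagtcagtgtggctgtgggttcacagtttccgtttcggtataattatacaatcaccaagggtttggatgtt
Ms4a4c: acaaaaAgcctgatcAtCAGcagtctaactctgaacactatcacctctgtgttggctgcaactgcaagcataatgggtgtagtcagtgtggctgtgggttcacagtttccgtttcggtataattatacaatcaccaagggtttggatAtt
Ms4a6b: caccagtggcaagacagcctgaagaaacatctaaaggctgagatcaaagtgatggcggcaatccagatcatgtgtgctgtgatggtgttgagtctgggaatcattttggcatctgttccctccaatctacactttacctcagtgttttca
Ms4a6c: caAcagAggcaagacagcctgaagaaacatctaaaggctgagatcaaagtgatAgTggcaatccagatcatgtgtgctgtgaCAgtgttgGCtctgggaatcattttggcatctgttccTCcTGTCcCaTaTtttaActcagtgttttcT
Ms4a6d: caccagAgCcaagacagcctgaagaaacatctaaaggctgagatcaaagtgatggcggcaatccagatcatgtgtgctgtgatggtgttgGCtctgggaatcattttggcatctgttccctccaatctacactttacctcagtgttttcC

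In these windows Ms4a4c differed from Ms4a4b at 6 of 150 bases, Ms4a6d from Ms4a6b at 5 and Ms4a6c from Ms4a6b at 19. The windows span exons 4 to 6 of Ms4a4b (plus strand, chr19:11457841-11461268) and Ms4a4c (plus strand, chr19:11417688-11421269). Those of the Ms4a6 genes span exons 3 to 4 of Ms4a6b (plus strand, chr19:11520429-11521763), 2 to 3 of Ms4a6c (plus strand, chr19:11471195-11472485) and 2 to 3 of Ms4a6d (minus strand, chr19:11601872-11603202). Over whole protein-coding transcripts the overlap was smaller. Of all windows of 100 bases, the share found unchanged in a transcript of any other gene was 0.882% for Ms4a4b, 1.66% for Ms4a4c and 0.574% for Ms4a6c, and 0 windows were shared for Ms4a4a, Ms4a6b, Ms4a6d and Ms4a7. At 50 bases the shares were 4.19% for Ms4a4b, 8.19% for Ms4a4c, 5.89% for Ms4a6b, 11.3% for Ms4a6c and 2.69% for Ms4a6d, and 0 for Ms4a4a and Ms4a7. The shares of Ms4a6c are not all likeness within the family. At 100 bases it shared windows with 1 gene, outside the family, and at 50 bases with 11 genes, of which only Ms4a6b is an MS4A gene. These GENCODE M21 transcripts need not cover the gene models that were counted. Ms4a4a had 787 windows of 50 bases, while the authors' length-scaled values imply a counted length of 1424 bases. Counted sequence outside the transcripts was not examined. How the authors treated reads that fit several genes is not given in the sources used here, so the levels of Ms4a4b, Ms4a4c and the Ms4a6 genes are uncertain by reads that could be split or dropped. The reference is also that of C57BL/6J mice, and differences from BALB/c at these loci were not examined.

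Of the 7 members, 5 were higher in TP-18 than in vehicle tumors, namely Ms4a4b, Ms4a4c, Ms4a6b, Ms4a6c and Ms4a7. The test was the quasi-likelihood F test of edgeR, with p-values adjusted over all genes by the method of Benjamini and Hochberg, and a gene was called at an adjusted p under 0.05. In the same fit 7.09% of the 14189 tested genes were called higher, 5.26% lower and 12.4% in either direction. The largest change was that of Ms4a4b, 4.63-fold, and those of Ms4a4c, Ms4a7, Ms4a6b and Ms4a6c lay between 3.36-fold and 2.40-fold. With any 1 of the TP-18 libraries left out, edgeR called 3 members, Ms4a4b, Ms4a4c and Ms4a7. Ms4a6d and Ms4a4a missed the threshold, and Ms4a4a averaged nearly the same level in both groups. The median log2 change of the 7 members was 1.31, beside -0.01 over all genes tested. No member was called lower by edgeR, DESeq2 or limma-voom, and 0 were lower at an unadjusted p under 0.05 by edgeR. The 5 called members did not overlap between groups, with all TP-18 tumors above all vehicle tumors. Over all genes tested, 18.0% were separate in that direction, 17.8% in the other and 35.8% in either.

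**Figure D1:**
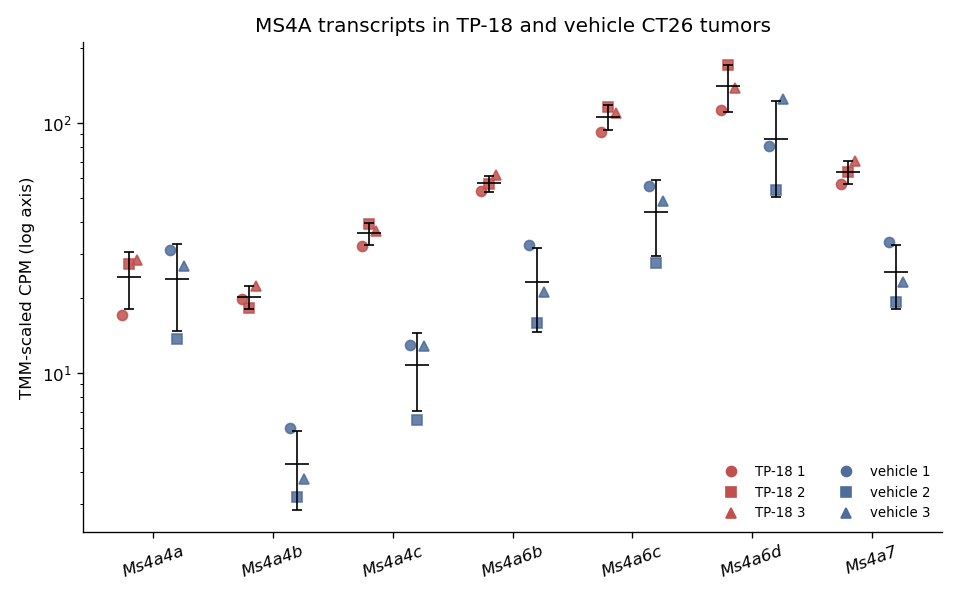
Points give the TMM-scaled CPM (log axis) of the 7 members in each of 3 TP-18 tumors (red, left) and 3 vehicle tumors (blue, right), with the mean and SD of each group in black. All 3 TP-18 tumors lie above all 3 vehicle tumors for 5 members, the groups overlap for Ms4a4a and Ms4a6d, and vehicle 2 is the lowest tumor for every member.

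Libraries held 34813482 to 36489081 counts, so depth was nearly equal. Levels of a gene are given as CPM, counts scaled to a common library size that TMM corrects for composition. The leukocyte gene Ptprc, which encodes CD45 on white blood cells, measured 135.9, 155 and 139.8 CPM in TP-18 tumors and 53.7, 50.0 and 62.3 CPM in vehicle tumors. It rose by 1.38 ± 0.10 on the log2 scale (SE, edgeR adjusted p = 0.00131), also with any single library left out. As a check of the labelled tumor, the epithelial keratin gene Krt18 was read at 4.00 to 7.50 CPM in TP-18 tumors and 8.54 to 12.99 CPM in vehicle tumors, while its partner Krt8 and the epithelial adhesion gene Epcam had at most 24 reads in any library. Of 5 tested red blood cell markers, edgeR called 4 lower and limma-voom 1, with summed levels of 14.8 to 33.9 CPM in TP-18 tumors and 66.3 to 395 CPM in vehicle tumors. Of 11 skeletal muscle markers, edgeR called 6 higher and limma-voom 5, with sums of 64.0 to 129 CPM in TP-18 tumors and 11.4 to 35.5 CPM in vehicle tumors. Their part in the MS4A results was not tested.

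Ms4a4b is a gene of T cells and NK cells (Entrez 60361, plus strand, 11443558 to 11463549). Its level was 19.8, 18.2 and 22.3 CPM in TP-18 tumors 1, 2 and 3, on 737, 664 and 871 reads, and 6.03, 3.19 and 3.78 CPM in vehicle tumors 1, 2 and 3, on 212, 104 and 121 reads. The lowest TP-18 tumor lay far above the highest vehicle tumor, vehicle 1, and the other vehicle tumors were close together. Ms4a4b rose by 2.21 ± 0.24 on the log2 scale (SE, edgeR adjusted p = 0.00301), and it was called whichever library was left out, with changes of 2.04 to 2.55 and adjusted p-values of 0.00066 to 0.0146.

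Its closest copy Ms4a4c (Entrez 64380, plus strand, 11404717 to 11427246), a gene of monocytes and lymphocytes, measured 32.3, 39.3 and 37.0 CPM in TP-18 tumors and 12.98, 6.49 and 12.8 CPM in vehicle tumors. RefSeq places the pseudogene Gm5692 across its 5′ end, where reads may not be separable. Vehicle 2 stood below the other vehicle tumors, all TP-18 tumors lay close together, and the groups did not overlap. Ms4a4c rose by 1.75 ± 0.26 (edgeR adjusted p = 0.0105) and stayed called through all 6 omissions of a library, at adjusted p-values of up to 0.0430.

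Ms4a7 (Entrez 109225, minus strand, 11321039 to 11336146) marks macrophages. It measured 57.0, 63.5 and 70.5 CPM in TP-18 tumors and 33.3, 19.2 and 23.1 CPM in vehicle tumors, with no overlap between groups. The change was 1.34 ± 0.20 (edgeR adjusted p = 0.0102), and the call held in all 6 fits with a library left out, at adjusted p-values of up to 0.0422.

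Ms4a6b and Ms4a6c moved by similar amounts at different levels. Ms4a6b (Entrez 69774, plus strand, 11518559 to 11530403) had 53.4, 56.7 and 61.6 CPM in TP-18 tumors and 32.3, 15.8 and 21.1 CPM in vehicle tumors, a change of 1.31 ± 0.25 (edgeR adjusted p = 0.0243). Ms4a6c (Entrez 73656, plus strand, 11469353 to 11487182) had 92.2, 116 and 109 CPM in TP-18 tumors and 55.9, 27.4 and 48.7 CPM in vehicle tumors, a change of 1.26 ± 0.26 (edgeR adjusted p = 0.0318). For both genes vehicle 1 was the vehicle tumor nearest to the TP-18 tumors and vehicle 2 the farthest. Both calls were lost in several alternatives. With all libraries but no filter on low counts, the edgeR adjusted p was 0.0624 for Ms4a6b and 0.0919 for Ms4a6c, and by limma on unfiltered log2(FPKM + 1) it was 0.0541 and 0.0613. Without TP-18 1, TP-18 2, TP-18 3 or vehicle 3 the edgeR adjusted p of Ms4a6b was 0.0645, 0.0688, 0.0836 and 0.0599, and that of Ms4a6c was 0.0709, 0.0894, 0.102 and 0.0586, while their log2 changes stayed between 1.02 and 1.65 in all 6 fits. The lncRNA BE692007 lies inside Ms4a6c, and since the strandedness of the libraries is not given their reads may not be separable. It held 17 to 39 reads in TP-18 libraries and 3 to 7 in vehicle libraries, where Ms4a6c held 3428 to 4269 and 896 to 1964.

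Ms4a6d (Entrez 68774, minus strand, 11586606 to 11604804), a macrophage gene whose mouse protein is described to bind the macrophage receptor VSIG4, was the most abundant member. Its level was 112, 171 and 138 CPM in TP-18 tumors and 80.7, 53.6 and 124 CPM in vehicle tumors, so that vehicle 3 lay above TP-18 1. The log2 difference was 0.70 ± 0.33 with an edgeR adjusted p of 0.216. Without vehicle 3 it was 1.07 with an adjusted p of 0.0468, DESeq2 gave an adjusted p of 0.0425 with all libraries, and over all alternatives the adjusted p ran from 0.0425 to 0.430.

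Ms4a4a (Entrez 666907, plus strand, 11375488 to 11392915) encodes a macrophage protein that associates with the fungal receptor dectin-1 and is raised in alternatively activated macrophages. It measured 17.0, 27.3 and 28.3 CPM in TP-18 tumors and 31.0, 13.6 and 26.7 CPM in vehicle tumors. The ranges covered each other almost fully, with TP-18 1 and vehicle 2 at the low end and vehicle 1 at the top. The log2 difference was 0.03 ± 0.34 (edgeR adjusted p = 0.968), and its sign changed with the library left out, between -0.25 without vehicle 2 and 0.28 without vehicle 1. No change was detectable beyond the spread between tumors.

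**Figure D2:**
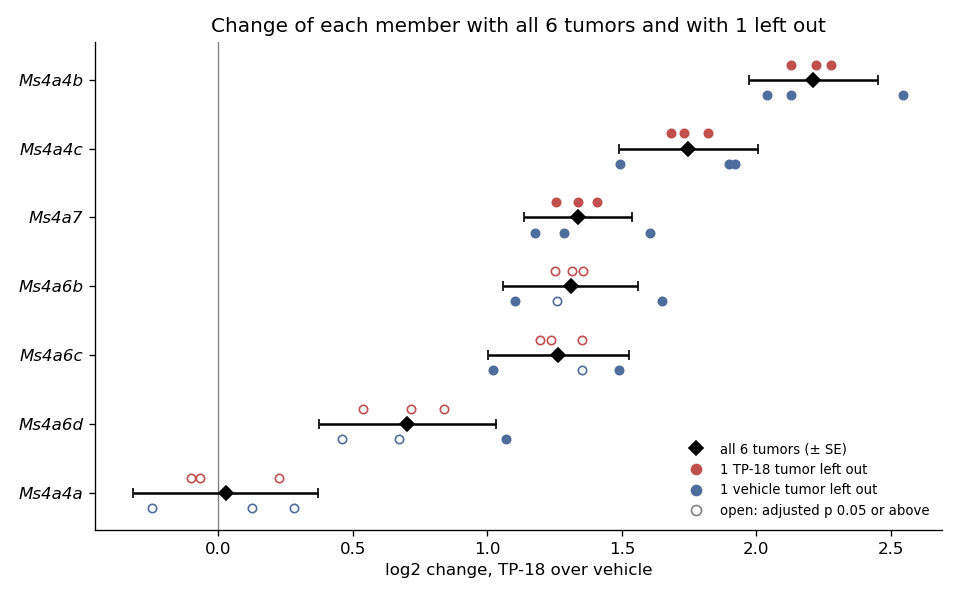
Diamonds show the log2 change of each member, TP-18 over vehicle, with its SE in the fit of all 6 tumors, and circles show the fits with 1 TP-18 tumor (red) or 1 vehicle tumor (blue) left out, open where the adjusted p was 0.05 or above. Ms4a4b, Ms4a4c and Ms4a7 keep filled circles in all 6 fits, Ms4a6b and Ms4a6c have 4 open circles each, Ms4a6d has 1 filled circle and Ms4a4a none.

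Levels of different genes can be compared only per length, for which the authors' FPKM (fragments scaled to gene length and library size) were used. In TP-18 tumors the order by mean FPKM was Ms4a6d (107 ± 21.4, SD, n = 3), Ms4a6c (50.8 ± 5.72), Ms4a7 (39.0 ± 4.59), Ms4a6b (35.7 ± 3.04), Ms4a4a (17.9 ± 4.68), Ms4a4b (16.8 ± 2.04) and Ms4a4c (13.8 ± 1.32). In vehicle tumors it was Ms4a6d (59.5 ± 23.2), Ms4a6c (19.2 ± 6.96), Ms4a4a (16.0 ± 6.49), Ms4a7 (14.1 ± 4.68), Ms4a6b (13.1 ± 5.38), Ms4a4c (3.74 ± 1.34) and Ms4a4b (3.31 ± 1.30). The order of Ms4a4b and Ms4a4c depends on the gene lengths used, which the FPKM imply as 1259 and 2749 bases. In CPM Ms4a4c was above Ms4a4b in every tumor. The ranges of neighbours overlapped in TP-18 tumors for Ms4a7 with Ms4a6b and for Ms4a4a with Ms4a4b. In vehicle tumors they overlapped for Ms4a6c with Ms4a4a, Ms4a4a with Ms4a7, Ms4a7 with Ms4a6b and Ms4a4c with Ms4a4b. Within the same vehicle tumor, Ms4a6c lay above Ms4a4a and Ms4a7 above Ms4a6b in 3 of 3, whereas Ms4a4a lay above Ms4a7 in 2 of 3 and Ms4a4c above Ms4a4b in 1 of 3. Ms4a6d was first in all 6 tumors and made up 35.9% to 42.1% of the summed FPKM of the 7 members in TP-18 tumors and 38.2% to 54.8% in vehicle tumors. Ms4a4a made up 5.23% to 7.12% of that sum in TP-18 tumors and 11.02% to 14.1% in vehicle tumors. Ms4a4b had 4.88% to 6.89% of the sum in TP-18 tumors and 1.82% to 3.11% in vehicle tumors.

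**Figure D3:**
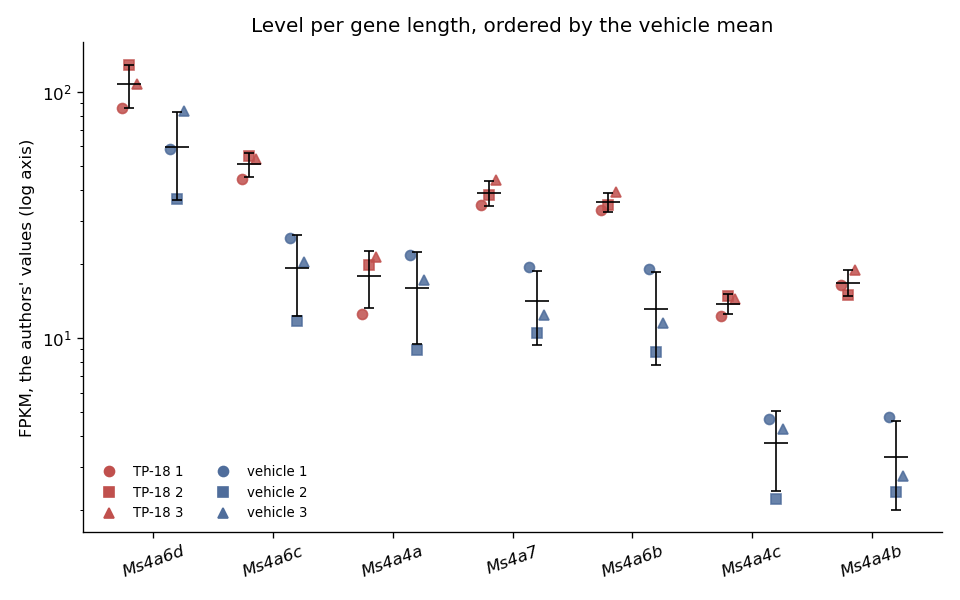
Points give the authors' FPKM (log axis) of each member in 3 TP-18 tumors (red, left) and 3 vehicle tumors (blue, right), ordered by the vehicle mean, with the group mean and SD in black. Ms4a6d is highest in both groups, and Ms4a4a is level with Ms4a7 and Ms4a6b in vehicle tumors but below both in every TP-18 tumor.

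Members also differed among themselves in how they ran across the 6 tumors. Profiles of log2 CPM were centred on each gene's own mean and compared by the root mean square (RMS) difference over the 6 tumors, a description with no test. Ms4a6b and Ms4a7 were the closest pair, with an RMS difference of 0.08 log2 units, and their log2 ratio was -0.09, -0.16 and -0.19 in TP-18 tumors and -0.04, -0.28 and -0.13 in vehicle tumors. These ratios overlapped between groups. Ms4a6b and Ms4a6c followed at 0.16. Ms4a4a and Ms4a4b were the farthest apart, at 1.13.

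Of the 21 ratios between members, 12 did not overlap between groups and 9 did, and all 6 ratios with Ms4a4a were among the 12. The share among ratios of other gene pairs was not computed, and 35.8% of single genes were separate in either direction. Ratios with a gene in common, such as the 6 with Ms4a4a, are not independent of each other. In log2 units the ratio of Ms4a4a to Ms4a6c was -2.43, -2.08 and -1.95 in TP-18 tumors and -0.85, -1.01 and -0.87 in vehicle tumors, a difference of -1.25 between group means. The Ms4a4a to Ms4a4c ratio was -0.92, -0.52 and -0.38 in TP-18 tumors and 1.25, 1.06 and 1.05 in vehicle tumors. A ratio shows that 2 genes changed unequally and not which of them changed. With 3 tumors against 3, an exact permutation test of one such ratio cannot give a two-sided p below 0.10, so none was tested.

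Profiles of genes outside the 7 members were compared in the same way, among those with a mean log2 CPM of 0 or more, and the 3 nearest to each member are named. The nearest to Ms4a4b were the lymphocyte GTPase gene Gimap7 (RMS difference 0.09), the dendritic cell growth factor receptor gene Flt3 (0.13) and Rnase6 (0.13), a secreted antimicrobial ribonuclease. Those nearest to Ms4a4c were Rasal3 (0.11), Syt11 (0.13) and the Fc receptor gene Fcgr4 (0.16). Sash3, a lymphocyte adaptor, was nearest to Ms4a6b (0.05) and among the 3 nearest to Ms4a7 (0.09). Bcl2a1a (0.08), which has near-identical copies that could split its reads, and Pkib (0.09) followed for Ms4a6b, and Tnip3 (0.08) and AI504432 (0.09) were nearer to Ms4a7. Il10ra (0.08), the receptor chain for interleukin-10, Tlr1 (0.08) and Epsti1 (0.09) were nearest to Ms4a6c. For Ms4a6d they were the complement receptor gene C5ar2 (0.09), Pxylp1 (0.09) and Tigd2 (0.10), and for Ms4a4a they were Lsr (0.15), Lyrm9 (0.17) and Gm51503 (0.20). All these points come from the same 6 libraries, so a small difference says only that the values ran alike.

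**Figure D4:**
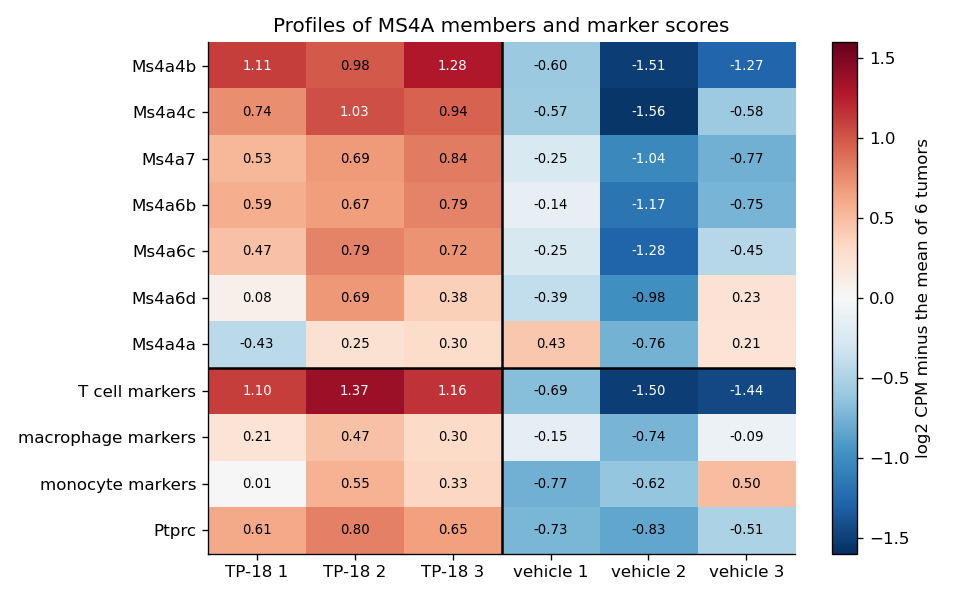
Colours and numbers give log2 CPM minus the gene's mean over the 6 tumors for the 7 members, for the mean of the T cell, macrophage and monocyte marker lists and for Ptprc, with TP-18 tumors left of the line. Ms4a4b runs from 0.98 to 1.28 in TP-18 tumors and from -1.51 to -0.60 in vehicle tumors, close to the T cell markers (1.10 to 1.37 and -1.50 to -0.69), while Ms4a4a and Ms4a6d have positive and negative values in the vehicle group.

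Marker genes of white blood cell types were read in the same fit. All 16 T cell markers were tested and all 16 were higher, with a median log2 change of 2.34 and summed levels of 113 to 127 CPM in TP-18 tumors and 19.9 to 39.1 CPM in vehicle tumors. Of 7 tested NK cell markers 6 were higher, with a median of 2.04 and sums of 118 to 191 CPM against 32.8 to 67.6 CPM in vehicle tumors. Of 17 macrophage markers 4 were higher and none lower, with a median of 0.69 (8 higher and 1 lower by DESeq2) and sums of 3609 to 5128 CPM in TP-18 tumors and 1933 to 3090 CPM in vehicle tumors. Adgre1 and Mpeg1 kept their call whichever library was omitted. The Fcgr1 call was lost with any single TP-18 library omitted, or vehicle 1. The Lyz2 call was lost without TP-18 2, TP-18 3, vehicle 2 or vehicle 3. Of the 17 log2 changes 15 were positive. Those of Cd163 and Mrc1 were -2.31 ± 0.81 and -0.64 ± 0.37, with edgeR adjusted p-values of 0.131 and 0.303. Cd163 was separate between groups, at 9.41, 6.21 and 7.92 CPM in TP-18 tumors and 12.8, 18.7 and 85.2 CPM in vehicle tumors. Of 12 monocyte markers 0 were higher and 1 was lower by edgeR, where 5 were higher and 3 lower at an unadjusted p under 0.05, DESeq2 called 4 higher and 2 lower, and limma-voom 2 higher and 1 lower. The lower one was Fn1, whose call was lost with any single TP-18 library omitted, or vehicle 2 and whose product is also made by fibroblasts and tumor cells. Their median was 0.83, with summed levels of 4427 to 4994 CPM in TP-18 tumors and 5836 to 8136 CPM in vehicle tumors, of which Fn1 is the main part. No T cell, macrophage or monocyte marker was at 0 in all libraries of a group. The NK cell marker Klra8 was nearly absent from both groups, with 0, 0 and 1 reads in TP-18 libraries and 0 in every vehicle library. Of 12 tested dendritic cell markers 7 were higher and none lower, of 6 B and plasma cell markers 3 higher, and of 8 mast cell and basophil markers 1 higher. The mast cell and basophil list had a median of 1.71, with 5 markers higher at an unadjusted p under 0.05, 2 by DESeq2 and 1 by limma-voom. Of 7 neutrophil markers 0 were called by edgeR, DESeq2 or limma-voom, also 0 at an unadjusted p under 0.05. Their sums were 69.4 to 149 CPM in TP-18 tumors and 47.3, 79.6 and 349 CPM in vehicle tumors 1, 2 and 3. Vehicle 3 also stood apart in the fibroblast sum, with 6431 CPM beside 2281 and 2404 CPM in vehicle 1 and 2. What this means for members that depended on vehicle 3 was not tested. Of 8 fibroblast, 8 endothelial, 3 adipocyte and 4 skin epithelium genes tested, edgeR called 0, with 1 fibroblast gene lower, 1 adipocyte gene higher and 1 skin gene higher at an unadjusted p under 0.05, and DESeq2 called 1 fibroblast gene lower, 1 endothelial gene higher and 2 adipocyte genes higher. Of 8 immediate early genes 3 were lower. Whether cell numbers account for the MS4A values was not tested.

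Set against these markers, the members fell into different places. Between group means the T cell mean differed by 2.42 log2 units, Ptprc by 1.38, the macrophage mean by 0.66 and the monocyte mean by 0.60. A higher ratio shows only that a member rose more than those markers. The share of all genes that separate between groups on such ratios was not computed. Ms4a4b overlapped between groups relative to the mean of the T cell markers, with log2 ratios of 1.89, 1.50 and 2.01 in TP-18 tumors and 1.97, 1.88 and 2.06 in vehicle tumors. Relative to Ptprc it was higher in every TP-18 tumor, by 0.87 on average. Ms4a4c and Ms4a6d overlapped between groups relative to Ptprc, with differences between group means of 0.43 and -0.61. Ms4a6b, Ms4a6c and Ms4a7 differed from Ptprc by nearly the same ratio in both groups, with differences between group means of -0.01, -0.06 and -0.01 and overlapping values. For Ms4a6b the log2 ratios to Ptprc were -1.35, -1.45 and -1.18 in TP-18 tumors and -0.73, -1.66 and -1.56 in vehicle tumors. Relative to the mean of the macrophage markers these 3 genes were higher in every TP-18 tumor, by 0.71, 0.66 and 0.71, and so were Ms4a4b and Ms4a4c, by 1.59 and 1.15. Relative to the mean of the monocyte markers, Ms4a6b, Ms4a6c and Ms4a7 overlapped between groups, with differences of 0.77, 0.72 and 0.77, while Ms4a4b and Ms4a4c were higher in every TP-18 tumor, by 1.65 and 1.21. Ms4a4a and Ms4a6d overlapped there too, at -0.52 and 0.17. That monocyte mean joins markers of both directions, 7 of 12 with a positive log2 change. It was 4.92, 5.46 and 5.24 log2 CPM in TP-18 tumors and 4.14, 4.29 and 5.41 in vehicle tumors, and the ratios carry this spread. Ms4a6d overlapped between groups relative to the macrophage markers, at 0.34, 0.68 and 0.54 in TP-18 tumors and 0.23, 0.22 and 0.79 in vehicle tumors. Ms4a4a was lower relative to Ptprc in every TP-18 tumor, with -2.99, -2.51 and -2.30 in TP-18 tumors and -0.79, -1.87 and -1.22 in vehicle tumors. Relative to the macrophage markers its values of -2.38, -1.96 and -1.74 in TP-18 tumors overlapped those of -1.15, -1.75 and -1.42 in vehicle tumors, since TP-18 3 lay just above vehicle 2. With the median in place of the mean of the macrophage markers, the difference between groups was -0.24 for Ms4a4a, 0.45 for Ms4a6d and 1.05 for Ms4a6b and Ms4a7.

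**Figure D5:**
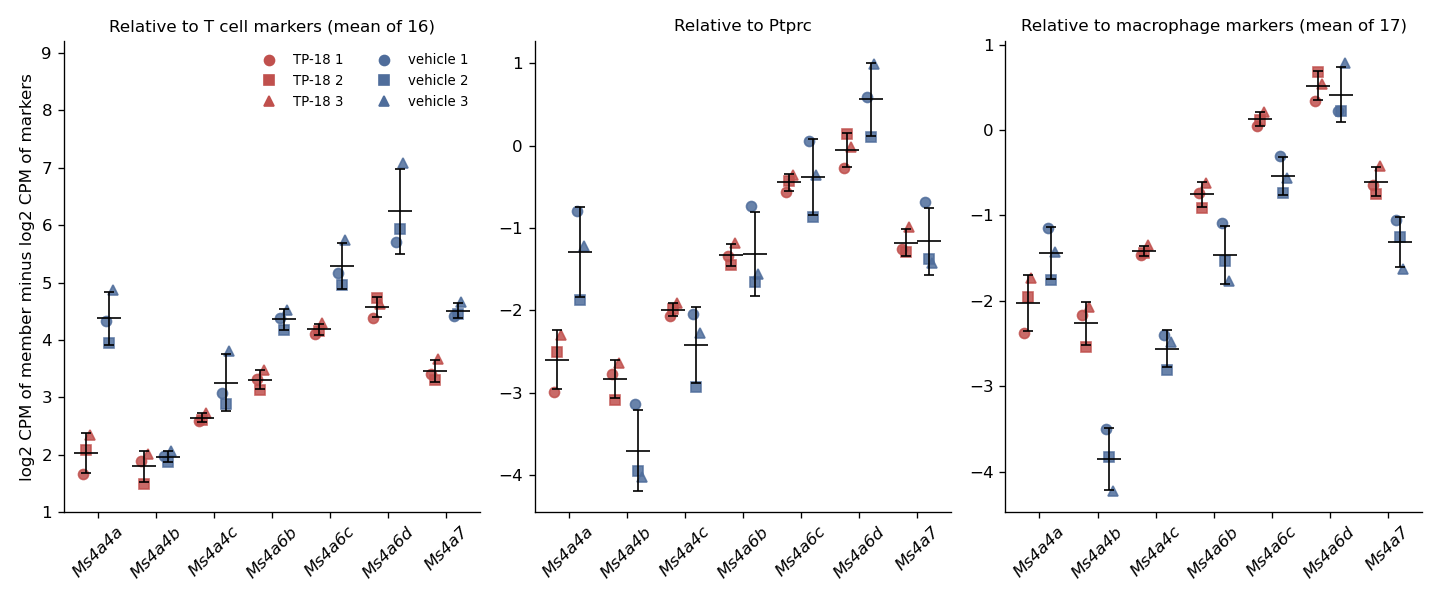
Points give the log2 CPM of each member minus the mean log2 CPM of 16 T cell markers (left), minus that of Ptprc (middle) and minus the mean of 17 macrophage markers (right), in 3 TP-18 tumors (red) and 3 vehicle tumors (blue), with group mean and SD in black. Only Ms4a4b overlaps between groups against T cell markers. Against Ptprc all members but Ms4a4a and Ms4a4b overlap, and against macrophage markers Ms4a4a and Ms4a6d overlap. The share of all genes that separate on these ratios was not computed.

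Of 15 other genes looked up, 10 were in the count table, 6 passed the filter on low counts, and 1 was called. The related genes Tmem176a and Tmem176b were abundant, whereas each other gene stayed below 10 CPM in every tumor. The called gene was Tmem176a, which with Tmem176b belongs to a related pair of leukocyte membrane genes on chromosome 6. Tmem176a measured 166, 131 and 130.0 CPM in TP-18 tumors and 117, 99.9 and 93.8 CPM in vehicle tumors (log2 change 0.46 ± 0.12, edgeR adjusted p = 0.0496). Its call was lost in 5 of the 6 fits with a library left out, at adjusted p-values of 0.0797 to 0.159, and held without vehicle 1. Tmem176b had a log2 difference of 0.20 ± 0.11 (edgeR adjusted p = 0.266).

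Ms4a4d, which lies between Ms4a6b and Ms4a6d and matches Ms4a4c at 87.9% of aligned coding bases, measured 4.62, 9.44 and 4.97 CPM in TP-18 tumors and 0.655, 0.245 and 2.31 CPM in vehicle tumors. The groups were separate, with a log2 difference of 2.57 ± 0.76, but the adjusted p of edgeR was 0.0765. It was 0.0095 once vehicle 3 was omitted, where Ms4a4d was highest among vehicle tumors, and between 0.117 and 0.168 with any other single library omitted, while DESeq2 gave 0.000654 and limma-voom 0.0332. Ms4a2 had 64, 21 and 48 reads in TP-18 libraries and 12, 16 and 5 in vehicle libraries, which did not overlap, a log2 difference of 1.82 ± 0.56 (edgeR adjusted p = 0.0696). The adjusted p of Ms4a2 was 0.0407 by DESeq2, 0.0964 by limma-voom and 0.0662 to 0.206 by edgeR with 1 library left out. Fcer1a, the IgE-binding chain that pairs with it, was also separate between groups and differed by 1.89 ± 0.58 (edgeR adjusted p = 0.0712). For Fcer1a DESeq2 gave 0.00621, limma-voom 0.0782 and edgeR 0.0361 without vehicle 1, and 0.0659 to 0.206 with another single library omitted. Ms4a14 and Ms4a8a had log2 differences of 0.87 ± 0.34 and 0.65 ± 0.74, with edgeR adjusted p-values of 0.128 and 0.600. Ms4a1, the B cell gene, had 4, 2 and 5 reads in TP-18 libraries and 0, 2 and 1 in vehicle libraries. Ms4a15, Ms4a19 and Ms4a20 had 1 read each in all 6 libraries together, as had Ms4a12, which was not on the list.

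Genes of proteins described together with MS4A proteins did not move as one. Of 8 tested, 3 were higher and 1 lower, with a median log2 change of 0.81. Tnfrsf18, which encodes GITR, the costimulator that Ms4a4b associates with, measured 3.23, 4.60 and 4.18 CPM in TP-18 tumors and 1.48, 1.13 and 1.28 CPM in vehicle tumors (log2 change 1.62 ± 0.26, edgeR adjusted p = 0.0104, and 0.0506 without TP-18 3). Trem2, a lipid receptor of macrophages whose soluble form is linked to the MS4A locus in humans, measured 24.2, 36.0 and 23.8 CPM in TP-18 tumors and 17.4, 15.2 and 16.8 CPM in vehicle tumors (0.76 ± 0.17, edgeR adjusted p = 0.0286). Its adjusted p was 0.0523 without TP-18 3, 0.105 without vehicle 2 and 0.0530 without vehicle 3. Fcer1g, the signalling chain shared by Fc receptors, rose by 0.85 ± 0.20 (edgeR adjusted p = 0.0376), and the call was lost with any single TP-18 library omitted, or vehicle 3, at adjusted p-values of 0.0644 or more.

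Vsig4, the receptor described with Ms4a6d, was the partner gene that was lower. It held 4, 10 and 9 reads in TP-18 libraries and 26, 48 and 112 in vehicle libraries, or 0.108, 0.274 and 0.231 CPM in TP-18 tumors and 0.740, 1.47 and 3.50 CPM in vehicle tumors. Vsig4 fell by 3.20 ± 0.67 on the log2 scale (edgeR adjusted p = 0.0234). The adjusted p was 0.0760, 0.0622 and 0.0869 without TP-18 1, 2 and 3 and 0.0675 without vehicle 2, and limma-voom gave 0.0529. Vehicle 3 had the most Vsig4 and also the most Ms4a6d among vehicle tumors. Between the others the order was opposite, since vehicle 2 had more Vsig4 and less Ms4a6d than vehicle 1. Clec7a, which encodes dectin-1, the partner of Ms4a4a, measured 33.6, 71.8 and 55.3 CPM in TP-18 tumors and 14.2, 13.2 and 34.0 CPM in vehicle tumors. TP-18 1 and vehicle 3 met in the middle, and the log2 difference of 1.39 ± 0.48 had an edgeR adjusted p of 0.123. For Clec7a it was 0.0260 without vehicle 3 and 0.139 to 0.270 with another single library omitted, and DESeq2 gave 0.0524 and limma-voom 0.0525. The calcium channel gene Orai1 and the kinase gene Jak2 differed by 0.08 ± 0.14 and 0.19 ± 0.10, with edgeR adjusted p-values of 0.725 and 0.229.

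Promoters were searched for 6 short motifs on both strands in the 250 bases before the start of transcription, using 7 RefSeq GRCm38.p6 entries that cover 6 of the members, without Ms4a6d. The motifs were the gamma-activated sequence TTCNNNGAA, the interferon-stimulated response element, the ETS-IRF composite element, a PU.1 site GAGGAAGT, a RUNX site TGTGGTT and the cAMP response element TGACGTCA. In that order they occur in 7.02%, 2.98%, 2.30%, 2.44%, 4.396% and 1.55% of all 32851 promoter entries, and windows holding several motifs count for each. There were 0 matches in the members' windows, which says only that these letters are not in these 250 bases.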

How the data were processed

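Raw counts per gene and FPKM were deposited for 3 TP-18 and 3 vehicle tumors. Per the submitters' processing notes, fastp, HISAT2, HTSeq and GRCm38 were used, while their versions, the strandedness and the gene lengths are not given in those sources. The deposited counts are whole numbers without normalization, and the FPKM are the authors' values, scaled to gene length and library size. Members, gene lists and motifs were chosen with earlier results of these data known. Genes were kept by filterByExpr (minimum count 10, minimum total 15), scaled by TMM and tested in R 4.3.3 with edgeR 4.0.16 (robust quasi-likelihood F test, two-sided, group as the only term). SEs were derived from the F statistic, fold changes use edgeR's prior count of 0.125, and log2 CPM a prior count of 2. Profiles were described by RMS differences. Coding sequences from GENCODE M21 were aligned with Biopython 1.88. Alternatives were other scalings, filters and moderation, a replicate block, each library left out, DESeq2 1.42.0, limma 3.58.1 (voom, and log2 FPKM with pseudocounts of 1 and 0.1), an adjusted p under 0.10 and a 2-fold minimum. The procedure was run on simulated counts with a single dispersion for all genes. Genes here differ in their spread, so that run gives no error rate for the members. Named genes are the 7 members, every other family or partner gene that passed the filter, at most 3 called genes per marker list and the 3 nearest profiles per member. Further genes (Krt8, Krt18, Epcam, Ptprc, BE692007, Ms4a1, Ms4a12, Ms4a15, Ms4a19, Ms4a20, Klra8, Lyz2, Cd163 and Mrc1) were chosen after their values were seen. The libraries held 34813482 to 36489081 counts.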

Additional observations from a re-analysis of the deposited data

How the results depend on the processing

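Ms4a4b, Ms4a4c and Ms4a7 kept their direction and their call under all 19 alternatives each. Among these, the adjusted p under 0.10 and the 2-fold minimum reuse the main fit. Both were already met there by these 3 genes, so their calls could not be lost. The 5 called members became 3 without a filter on low counts and 3 by limma on unfiltered log2(FPKM + 1), both without Ms4a6b and Ms4a6c, and 3 to 5 with 1 library left out, 3 being the count with any single TP-18 library omitted. The log2 difference of Ms4a4a turned negative when TP-18 2 (-0.07), TP-18 3 (-0.10) or vehicle 2 (-0.25) was omitted, and ran from -0.25 to 0.28 over all omissions. Calls over all genes numbered 1753, and 778 with the replicate number as a block, 2704 by DESeq2, 846 by limma on unfiltered FPKM, 3022 at an adjusted p under 0.10, 693 with a 2-fold minimum and 499 to 2239 with 1 library left out. With FPKM the median shift over genes was 0.14 log2 units, and limma on filtered log2(FPKM + 1) called 1310 higher and 245 lower, against 1006 and 747 by edgeR. Of the other MS4A genes 1 was called, and 0 with RLE scaling, upper-quartile scaling, non-robust moderation, a 2-fold minimum or unfiltered FPKM, where 4 or more had an unadjusted p under 0.05. It was 3 by DESeq2 or at an adjusted p under 0.10, 2 by limma on FPKM with either pseudocount, and 0 to 2 with 1 library left out, where 2 to 4 had an unadjusted p under 0.05. Of the partner genes 4 were called, 2 with the replicate block, 2 with a 2-fold minimum, 1 by limma on unfiltered FPKM, and 0 to 5 with 1 library left out. The 0 was without TP-18 3, where 4 were higher and 1 lower at an unadjusted p under 0.05. The labels state no pairing, and deviations of tumors with equal numbers correlated at 0.24, -0.08 and -0.04, with 1 of 3 TP-18 tumors closest to its own number. With the replicate block 4 members were called, and the adjusted p of Ms4a6c was 0.0860 (0.102 at most over its alternatives). The cause of these differences was not tested. Of 161 alternative values of levels relative to T cell markers, macrophage markers or Ptprc, 9 moved by more than the spread between tumors, all with the median of the markers. No alternative was run for levels relative to monocyte markers. Members with the fewest reads, Ms4a4b among them, had at least 104 reads per library, while Ms4a1, Ms4a15, Ms4a19 and Ms4a20 were too shallow to test.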
